A study of Mus musculus with 9 samples.

Results

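Transcript levels of 10 genes of core cytokines and of the interleukin-1 (IL-1) family were followed in sorted mouse liver macrophages, namely Il1a, Il1b, Il1rn, Il1r2, Il1rap, Tnf, Il6, Osm, Il10 and Il10ra. They were picked by gene symbol from the 23413 genes of the count table, with earlier results of these data known. All 10 passed the filter on low counts and were among the 11393 genes tested. The libraries came from C57BL/6 male mice that started a diet at 5 weeks of age and stayed on it for 8 weeks. The groups were normal chow (NC, 10 kcal% fat, 2 libraries), a high-fat diet (HFD, 60 kcal% fat) with injections of the PEG vehicle (HFD vehicle, 3 libraries), and HFD with diphenyleneiodonium in that vehicle (HFD DPI, 4 libraries). DPI is a small molecule used in the study as an agonist of the receptor GPR3 and also known as an inhibitor of NADPH oxidases, and it was injected at 2 mg/kg every 5 days from week 3 on HFD. The treatment protocol in the sample labels instead describes 500 nM DPI for 24 h on purified cells, and the groups themselves are named alike in both sources. The sample titles name a single mouse for each library, while the groups as described held more mice than libraries, and p-values measure the spread between these libraries.

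The cells had been sorted as F4/80+CD11b+Gr1low, a gate meant to hold mostly Kupffer cells (KCs), the resident macrophages of the liver. Each of the 10 general macrophage markers was above 3 counts in every library, but only 2 of the 9 KC markers were, and Clec4f, the C-type lectin that defines KCs, had 0 counts in 3 of the 9 libraries. The 8 monocyte markers were above 3 counts in every library, as were 11 of the 13 neutrophil markers in the table. Summed neutrophil markers lay between 1673 and 3715 CPM (counts scaled to the normalized library total) in NC, between 2702 and 4199 CPM in HFD vehicle and between 1072 and 5979 CPM in HFD DPI. Library totals ranged from 3534325 to 15585775 counts, with 27.0% to 44.5% on the ribosomal RNA precursor Rn45s, and 3 counts, the least taken to differ from none, equal 0.184 to 1.02 CPM. In such bulk RNA, fewer cells of a type and less RNA per cell cannot be told apart.

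IL-1α and IL-1β are the agonists of the IL-1 system and act through IL-1R1, which recruits the accessory chain IL-1RAP. The antagonist IL-1RN occupies IL-1R1 without signalling, and IL-1R2 is a decoy receptor that binds IL-1 and lacks a signalling domain. TNF, IL-6 and oncostatin M (OSM) are inflammatory mediators that macrophages and other myeloid cells release, whereas IL-10, through a receptor that contains IL-10RA, restrains them, and in the liver KCs and recruited monocytes are prominent sources of these cytokines.

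The ligand and antagonist genes Il1a, Il1b and Il1rn lie on chromosome 2, with Il1a (from 129299610 to 129309972) and Il1b (from 129364570 to 129371139) on the minus strand 54597 bases apart, and Il1rn (from 24336853 to 24351494) on the plus strand, in GRCm38 (mm10) as annotated by GENCODE M21. RefSeq promoter windows (GRCm38.p6) were held for 7 of the 10 genes, in 9 windows. The 250 bases before the transcription start are printed 5′ to 3′ for the antagonist gene Il1rn (the first of its 3 starts), for Il1a, which had no count in HFD vehicle, and for Il1b and Il1r2, whose levels moved together. The Il1r2 window precedes a RefSeq start that lies inside the GENCODE span of the gene. Capitals mark matches, on either strand, to TATAAA (the TATA element) or TGANTCA (the AP-1 element).
Il1a, chr2:129309973-129310222, minus strand: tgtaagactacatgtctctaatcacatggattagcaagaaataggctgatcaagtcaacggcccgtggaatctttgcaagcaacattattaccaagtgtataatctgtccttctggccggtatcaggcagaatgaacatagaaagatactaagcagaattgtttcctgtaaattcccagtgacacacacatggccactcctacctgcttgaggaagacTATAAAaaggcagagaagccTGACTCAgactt
Il1b, chr2:129371140-129371389, minus strand: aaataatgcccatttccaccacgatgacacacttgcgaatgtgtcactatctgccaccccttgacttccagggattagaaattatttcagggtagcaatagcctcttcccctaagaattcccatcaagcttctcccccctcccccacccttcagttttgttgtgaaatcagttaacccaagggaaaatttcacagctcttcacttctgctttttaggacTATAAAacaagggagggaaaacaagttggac
Il1rn, chr2:24336610-24336859, plus strand: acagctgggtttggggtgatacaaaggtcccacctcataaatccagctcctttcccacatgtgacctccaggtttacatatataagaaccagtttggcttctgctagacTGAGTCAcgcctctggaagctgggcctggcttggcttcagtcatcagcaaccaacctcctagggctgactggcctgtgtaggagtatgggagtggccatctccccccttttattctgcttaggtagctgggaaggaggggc
Il1r2, chr1:40085843-40086092, plus strand: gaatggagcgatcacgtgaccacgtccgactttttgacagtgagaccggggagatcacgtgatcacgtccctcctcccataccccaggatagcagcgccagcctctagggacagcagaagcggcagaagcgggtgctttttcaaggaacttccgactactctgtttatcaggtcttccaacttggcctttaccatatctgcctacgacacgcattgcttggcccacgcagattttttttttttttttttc
Il1a carried TATAAA 32 bases and TGANTCA 12 bases before its start, Il1b carried TATAAA 31 bases before its start, and Il1rn had TGANTCA 141 bases before its start. These motifs occur in 12.4% and 6.75% of all 32851 windows of 250 bases. The windows were also searched for GGANTTTCC (a κB-type element, in 1.07% of all windows), TGACGTCA (the cyclic AMP response element, in 1.55%) and TTGCNNAA (a C/EBP-type element, in 9.56%), none of which overlapped another match in the members. The only member with such a match was Il6, with GGANTTTCC 43 bases and TTGCNNAA 128 bases before its start, besides TGANTCA 249 bases before it. In Tnf TATAAA lay 29 bases before the start, and the Il1r2 and Il1rap windows and the other 2 Il1rn windows held none of the 5 motifs. These matches describe letters in a window and no more.

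Il1b was the most abundant of the 10 transcripts for its length in each group, at 344 ± 272 CPM per kb of exon in NC (SD, n = 2), 666 ± 230.0 in HFD vehicle (SD, n = 3) and 447 ± 436 in HFD DPI (SD, n = 4). In NC, Osm followed with 84.2 ± 61.8, Il10ra with 35.9 ± 8.35, Il1r2 with 32.0 ± 20.4, Tnf with 16.5 ± 16.8 and Il1rn with 10.1 ± 10.8 CPM per kb, and neighbours in this order lay within their spread. In HFD vehicle Il1r2 came next to Il1b, at 201 ± 54.5 CPM per kb, before Osm at 107 ± 38.8 and Il1rn at 50.3 ± 5.99, which was above Il10ra at 29.3 ± 0.837 and Tnf at 27.0 ± 8.44. In HFD DPI Il1r2 (139.8 ± 208), Osm (91.2 ± 63.3), Il10ra (29.4 ± 3.88), Tnf (19.5 ± 8.60) and Il1rn (17.6 ± 7.69 CPM per kb) followed, with neighbours within their spread. Il6, Il1rap, Il10 and Il1a were low in each group, at 0 to 6.80 CPM per kb in any library.

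**Figure D1:**
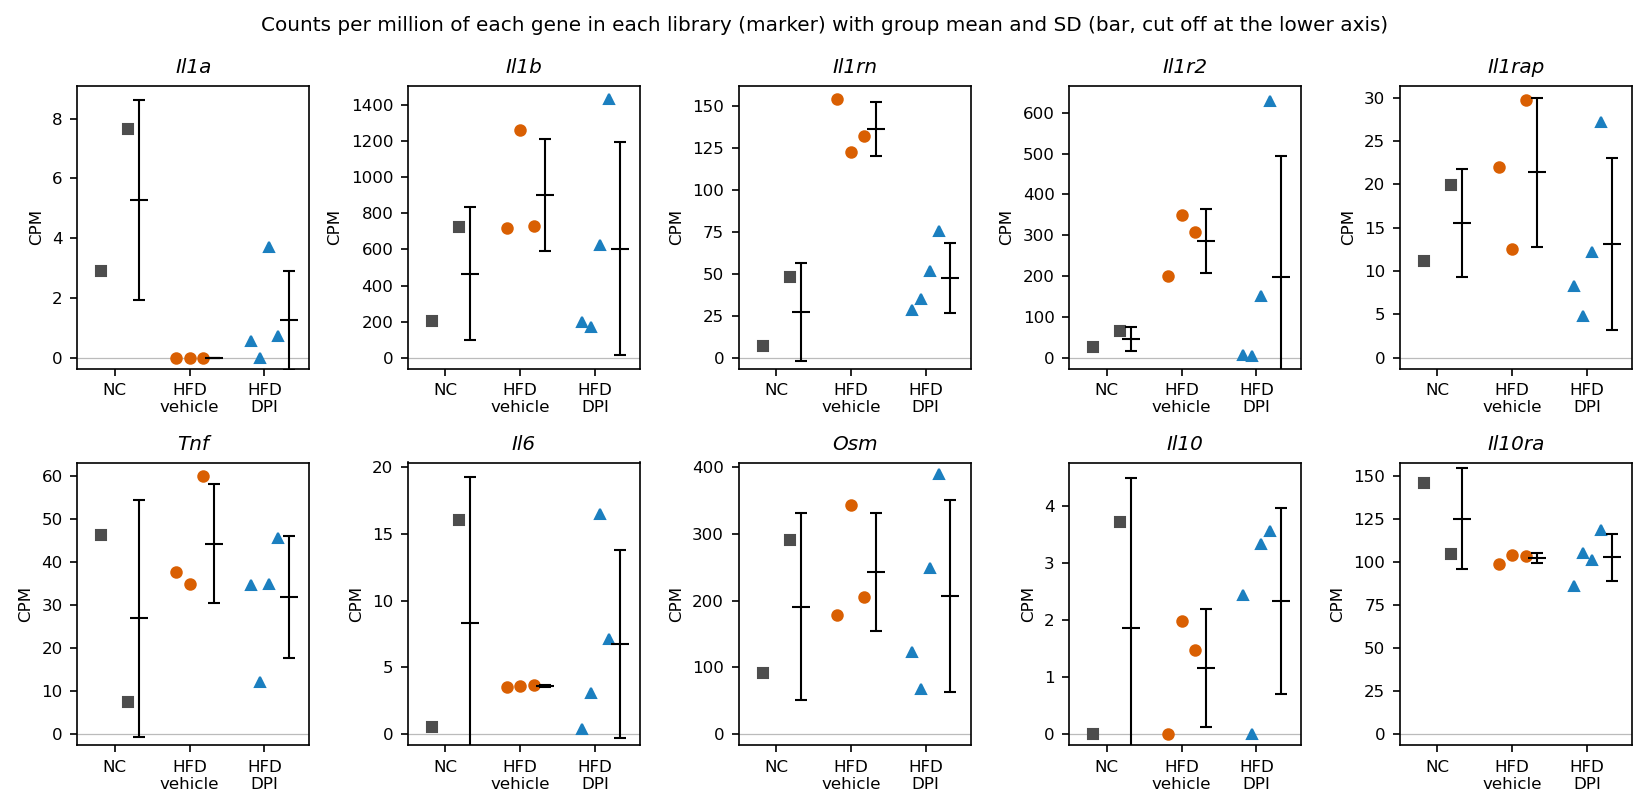
Normalized counts (CPM, vertical axis, with a grey line at 0) of each of the 10 genes in the 2 NC (squares), 3 HFD vehicle (circles) and 4 HFD DPI libraries (triangles), with the group mean and SD beside them, cut off at the lower axis. The 3 vehicle libraries lie above all others for Il1rn (122 to 154 CPM) and at 0 for Il1a, whereas the DPI libraries spread from 5.09 to 629 CPM for Il1r2.

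Among all 10 genes, 1 was higher and 1 was lower in HFD vehicle than in NC at the threshold of the study, an unadjusted p under 0.05 with at least a 2-fold change in edgeR. The quasi-likelihood test of edgeR to which it was applied was chosen here. Il1rn was the higher and Il1a the lower one, and over all genes tested 7.03% were higher and 4.63% lower at that threshold. With DPI against vehicle, again 1 gene was higher (Il1a) and 1 lower (Il1rn), where 1.5% and 1.34% of all genes were. Il1a was at 0 in all vehicle libraries and passed the filter on low counts only through libraries of the other groups, so it had to differ, its calls are not read against these shares, and its values are given below without a p. With DPI against NC, 0 members passed in either direction, against 6.24% of all genes higher and 3.05% lower. HFD vehicle against NC and DPI against vehicle share the 3 vehicle libraries, so opposite signs in these comparisons are not independent of each other.

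After Benjamini-Hochberg adjustment over all genes, edgeR called 0 members in each of the 3 comparisons, where 0.0614% of all genes were called for HFD vehicle against NC, 0% for DPI against vehicle and 0.00878% for DPI against NC. At an unadjusted p under 0.05 there were 2, 2 and 0 members in edgeR, where 13%, 4.13% and 10.7% of all genes were. Il1a is counted in both comparisons with the vehicle group, and it is not read against these shares. DESeq2 called 2 members after adjustment for HFD vehicle against NC, Il1rn (adjusted p = 0.0186) and Il1a, from which nothing is read, where it called 2.51% of the 15818 genes it fitted. In DPI against vehicle and DPI against NC it called 0 members, against 0.0126% and 1.68% of all genes. The median fitted log2 fold change of the 10 genes was 0.40 for HFD vehicle against NC (all genes 0.03), -0.34 for DPI against vehicle (all genes 0.04) and 0.19 for DPI against NC (all genes 0.04), and it was the same with Il1a at its lower bound.

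**Figure D2:**
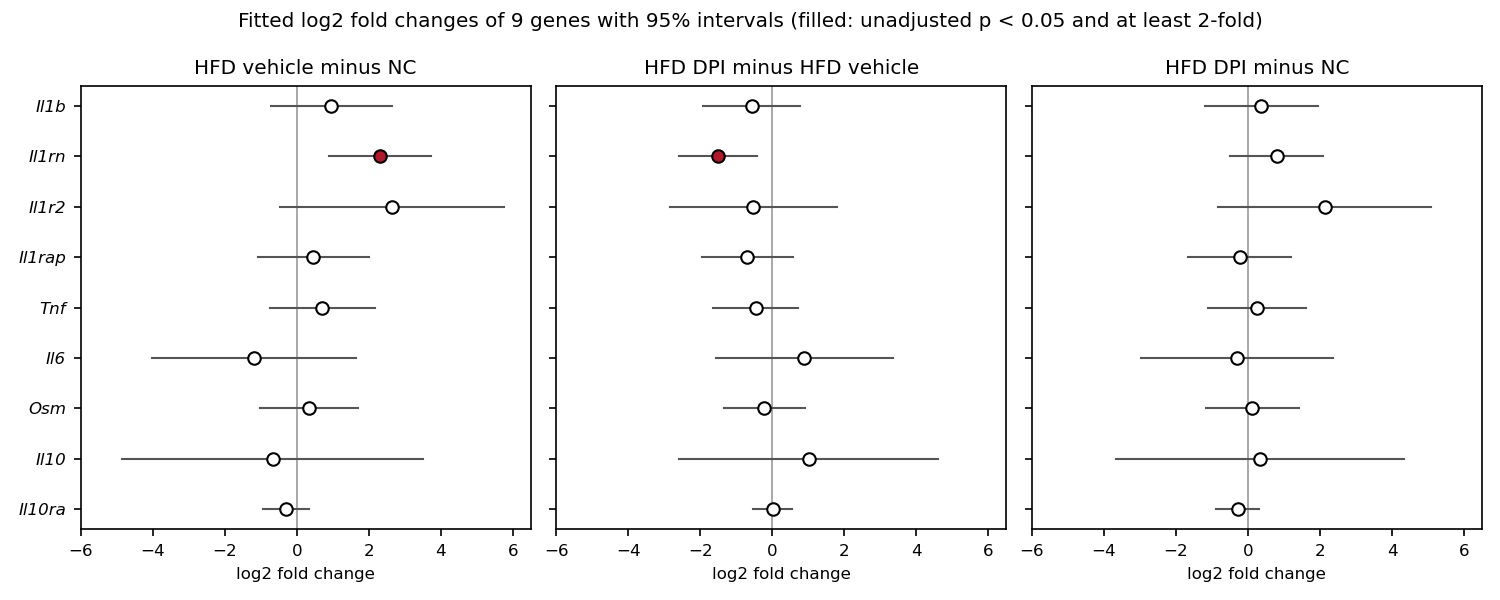
Fitted log2 fold changes (horizontal axis) with 95% intervals from edgeR for 9 of the 10 genes in the 3 comparisons. Filled points mark an unadjusted p under 0.05 with at least a 2-fold change, reached here by Il1rn alone, at 2.31 for HFD vehicle against NC and -1.52 for DPI against vehicle. Il1a is left out because its vehicle libraries are all at 0.

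Il1rn, the gene of the IL-1 receptor antagonist, was higher in HFD vehicle than in either other group. The NC libraries had 6.74 and 48.0 CPM, the vehicle libraries 154, 122 and 132 CPM, and the DPI libraries 28.6, 35.0, 51.4 and 75.2 CPM. The vehicle libraries thus lay together and above all 6 others, while the DPI libraries overlapped with NC. The mean was 27.4 ± 29.2 CPM in NC (SD, n = 2), 136 ± 16.2 CPM in HFD vehicle (SD, n = 3) and 47.5 ± 20.8 CPM in HFD DPI (SD, n = 4). Against NC the log2 fold change in HFD vehicle was 2.31 (SE 0.66, edgeR unadjusted p = 0.00379, adjusted p = 0.213), and with DPI against vehicle it was -1.52 (SE 0.50, edgeR unadjusted p = 0.00965, adjusted p = 0.999). DPI against NC gave 0.80 (SE 0.60, edgeR unadjusted p = 0.204, adjusted p = 0.659).

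The differences of Il1rn from the vehicle group held the study's threshold with any 1 of the 9 libraries left out. Against NC the log2 fold change ran from 1.51 without NC library 1 to 4.36 without NC library 2, and with DPI it ran from -1.83 without DPI library 4 to -1.33 without DPI library 1. DPI against NC depended on the NC library kept, with -0.0054 without NC library 1 and 2.84 without NC library 2. Without an NC library the NC arm is 1 library, which is assumed to vary like the other groups, and without NC library 2 edgeR called 4.61% and 4.64% of all genes after adjustment in the comparisons with NC, Il1rn included (adjusted p = 0.00553 for HFD vehicle and 0.0198 for DPI). In an exact permutation test on log2 CPM, two-sided, the difference from NC gave p = 0.1, the smallest possible with 3 libraries against 2, and the difference with DPI gave p = 0.0571, where the smallest possible was 0.0286.

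Several marker sums also differed between NC and HFD vehicle, some upward like Il1rn and some downward. Summed KC markers were 227 to 234 CPM in NC and 467 to 963 CPM in HFD vehicle, a difference carried by Id3, since the other 8 KC markers summed to 7.64 to 97.7 and 16.6 to 44.6 CPM, and Clec4f had a mean of 22.8 CPM in NC and 3.11 CPM in HFD vehicle. Dendritic cell markers summed to 55.2 to 108 and 193 to 310 CPM, carried by Ccr7, without which the sums were 55.1 to 61.1 and 33.7 to 78.5 CPM. B cell markers were 14.9 to 69.1 and 93.4 to 179 CPM, endothelial markers 119 to 172 and 6.44 to 11.1 CPM, and hepatocyte markers 114 to 221 and 14.1 to 60.6 CPM. Single markers also shifted from NC to HFD vehicle. At an unadjusted p under 0.05 in edgeR, 8 of 69 rose, such as Ly6c2, and 12 fell, such as Adgre1, C1qa, Ccr2 and Camp. That p was reached by 13% of all genes, and the counts include markers set aside below. Between HFD vehicle and HFD DPI the groups overlapped in each of the 9 marker sums. Still, 9 of the 69 markers tested were higher with DPI and 0 lower at that p, which 4.13% of all genes reached. Those higher with DPI were the endothelial genes Clec4g and Stab2, the neutrophil genes Camp, Ltf and Ngp, the macrophage genes C1qa and C1qc, Ccr2 and Cd209a. Clec4g (0, 0 and 7 vehicle counts) and Stab2 (0, 1 and 8) passed the filter only through other groups, so nothing is read from their calls. The same holds for HFD vehicle against NC, there also for Kdr, Ttr, Mpo and Pecam1. Of the other neutrophil markers, S100a8, S100a9, Retnlg, Cxcr2 and Csf3r had lower means with DPI, and Mpo, Elane, Lcn2, Mmp8 and Mmp9 higher ones. The part of these cells in the Il1rn differences was not tested.

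Il1a, the gene of IL-1α, had 0 counts in all vehicle libraries. Its counts were 16 and 41 in NC and 9, 0, 20 and 7 in HFD DPI, or 2.91 and 7.66 CPM in NC and 0.552, 0, 3.71 and 0.714 CPM with DPI. The NC libraries were above the vehicle group, and DPI library 2 was at 0 like the vehicle libraries. A count of 0 allows up to 0.666, 0.544 and 0.743 CPM in the vehicle libraries, taking 3 counts in each library as the limit, which covers counting error only. Against the mean of these limits, Il1a was at least 8.12-fold lower in HFD vehicle than in NC, or at least 4.48-fold without NC library 2 and 11.8-fold without NC library 1. With DPI it was at least 1.91-fold higher than with vehicle, but without DPI library 3 the DPI mean of 0.422 CPM lay under the mean vehicle limit of 0.651 CPM and gave no such bound. The DPI and NC libraries overlapped, with DPI library 3 between the NC libraries. It overlaps the annotated gene Gm14023, and the sources do not say whether reads were counted by strand.

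Il1b, the gene of IL-1β, had the most counts of the 10 genes in each library, from 494 to 14072. The NC libraries had 205 and 727 CPM, the vehicle libraries 717, 1263 and 730 CPM, and the DPI libraries 196, 168, 623 and 1436 CPM. NC library 2 lay within the range of the vehicle libraries, and the DPI libraries held both the lowest and the highest value of all 9. The log2 fold change was 0.95 (SE 0.78, edgeR unadjusted p = 0.241) for HFD vehicle against NC, -0.58 (SE 0.63, unadjusted p = 0.375) for DPI against vehicle and 0.38 (SE 0.73, unadjusted p = 0.612) for DPI against NC. Without NC library 2 the first of these was 2.17 (edgeR unadjusted p = 0.0406, with the same limit of a single NC library), and without NC library 1 it was 0.33. Il1b overlaps its antisense gene Il1bos, from which reads could not be told apart if strand was not used in counting.

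Il1r2, the gene of the decoy receptor (chromosome 1 from 40074079 to 40125231), spanned the widest range among the 10. The NC libraries had 25.0 and 65.9 CPM, the vehicle libraries 199.99, 350.2 and 307 CPM, and the DPI libraries 7.11, 5.09, 152 and 629 CPM. All vehicle libraries were above both NC libraries, and the DPI libraries lay on both sides of the other groups, 124-fold apart. HFD vehicle against NC gave a log2 fold change of 2.65 (SE 1.44, edgeR unadjusted p = 0.0886, adjusted p = 0.452), DPI against vehicle -0.52 (SE 1.07, unadjusted p = 0.633) and DPI against NC 2.13 (SE 1.37, unadjusted p = 0.143).

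The spread of the DPI libraries enters the first of these Il1r2 tests through the shared fit. Fitted on NC and HFD vehicle alone, the log2 fold change was also 2.65 but with an SE of 0.49 (edgeR unadjusted p = 0.000568, adjusted p = 0.203), and without DPI library 1, 2 or 4 the unadjusted p was 0.0429, 0.041 or 0.0451. Without a filter on low counts it was 0.0272 in edgeR, and with the replicate number as a block 0.0236. Other settings kept it above 0.05, with 0.116 in edgeR scaled by library size only and 0.114 in DESeq2. Without vehicle library 1 or 2 it was 0.0966 or 0.144 in edgeR. The log2 fold change was 2.13 without NC library 1 and 3.55 without NC library 2. DPI against NC passed the study's threshold without DPI library 2, at 2.57 (edgeR unadjusted p = 0.0486), and was 0.27 without DPI library 4. In an exact two-sided permutation test, HFD vehicle against NC gave p = 0.1, the smallest possible. Il1r2 overlaps the annotated genes Gm16894 and Gm37347, Il1rap overlaps Gm20319, and Il10ra overlaps Gm20612 and Mir7086, and reads of such pairs could not be told apart without strand.

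Il1rap, which codes for the accessory chain shared by IL-1R1 and related receptors (chromosome 16 from 26581704 to 26730117), had 11.1 and 20.0 CPM in NC, 22.0, 12.5 and 29.7 CPM in HFD vehicle, and 8.27, 4.76, 12.2 and 27.2 CPM in HFD DPI. The groups overlapped throughout. Its log2 fold change was 0.46 (SE 0.71, edgeR unadjusted p = 0.53) for HFD vehicle against NC, -0.69 (SE 0.58, unadjusted p = 0.259) for DPI against vehicle and -0.23 (SE 0.66, unadjusted p = 0.733) for DPI against NC. Il1r1, the signalling receptor that Il1rap serves, had 1 count in NC library 2 and 0 in the 8 other libraries, so that it was not detectable at this depth.

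Osm, the gene of oncostatin M (chromosome 11 from 4236420 to 4241026), had 92.0 and 291 CPM in NC, 179, 343 and 206 CPM in HFD vehicle, and 123, 66.9, 249.5 and 390.1 CPM in HFD DPI. Each group held both low and high libraries, and all groups overlapped. The log2 fold changes were 0.34 (SE 0.63, edgeR unadjusted p = 0.597), -0.23 (SE 0.52, unadjusted p = 0.674) and 0.12 (SE 0.60, unadjusted p = 0.847) in the order HFD vehicle against NC, DPI against vehicle and DPI against NC. The first turned to -0.25 without NC library 1, and the second to 0.11 without vehicle library 2 and to 0.06 without DPI library 2.

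Il1b, Il1r2 and Osm were high and low in the same libraries. Over the 9 libraries, log2 CPM of Il1b correlated with that of Il1r2 at r = 0.95 (Spearman 0.95) and with that of Osm at r = 0.95 (Spearman 0.9), and Il1r2 with Il1rap at r = 0.84 (Spearman 0.83). Without the 2 libraries farthest from the median, these were 0.90, 0.94 and 0.55. Il1b and Il1rn followed each other less closely, at r = 0.74 (Spearman 0.67), and Il10ra and Tnf had r of -0.03 and 0.21 with Il1b. These are descriptions over libraries of 3 groups that share their depth and cell mixture, and no p is given.

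Summed neutrophil markers were high and low in the same libraries. Their values were 1673 and 3715 CPM in NC, 2702, 3629 and 4199 CPM in HFD vehicle, and 1251, 1072, 4260 and 5979 CPM in HFD DPI. The correlation of this sum with log2 CPM was r = 0.93 for Il1b, 0.94 for Il1r2, 0.92 for Osm and 0.83 for Il1rap (Spearman 0.78, 0.78, 0.83 and 0.75), against 0.58 for Il1rn and 0.09 for Il10ra. Without the 2 libraries farthest from the median, these 4 were 0.85, 0.80, 0.89 and 0.55. DPI library 4 was the highest in Il1b, Il1r2 and Osm and in the neutrophil sum. Summed B cell markers, between 14.9 and 405 CPM, behaved alike, with r = 0.94 for Il1b, 0.90 for Il1r2 and 0.93 for Osm. The neutrophil sum was 24.6% to 71.2% S100a8 and S100a9, and without these 2 genes r was 0.68 for Il1b, 0.70 for Il1r2, 0.80 for Osm and 0.61 for Il1rap. Single markers differed, with r for Il1b from 0.87 with Retnlg and 0.83 with Cxcr2 to 0.13 with Mpo, -0.16 with Mmp8 and -0.49 with Camp. The sort on F4/80 and low Gr1 should leave out neutrophils and B cells, and what part such cells have in the levels of these genes was not tested.

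**Figure D3:**
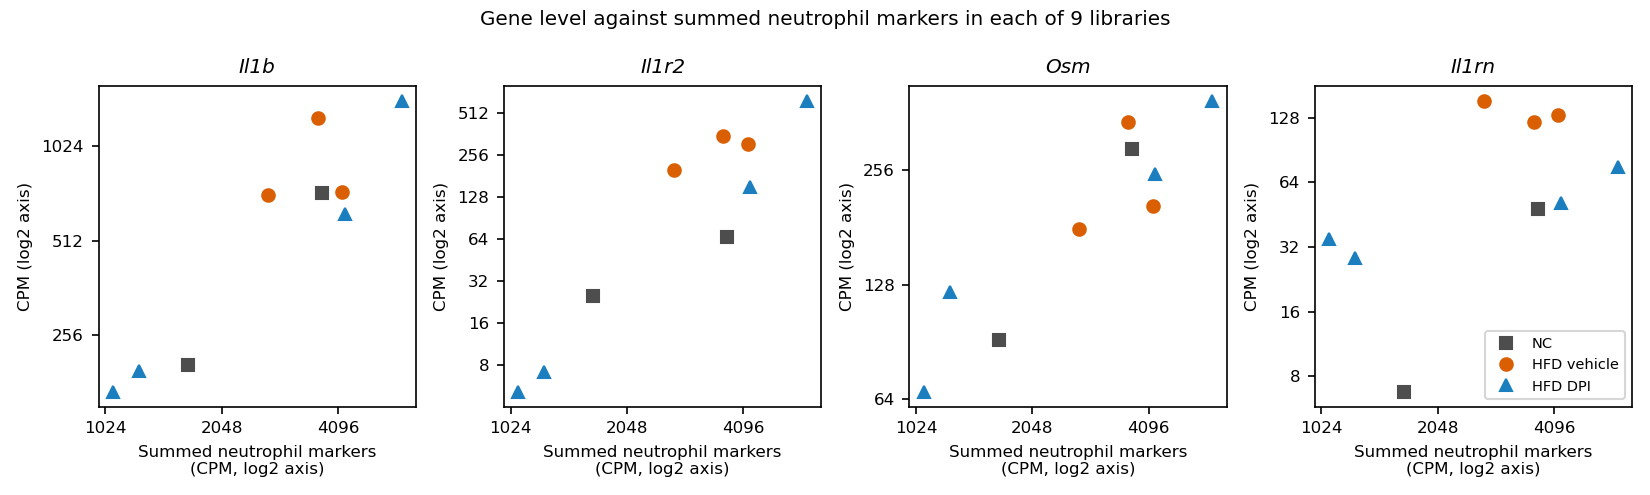
CPM of Il1b, Il1r2, Osm and Il1rn (vertical log2 axes) against the summed CPM of 13 neutrophil markers (horizontal log2 axis), 1 point per library. Il1b, Il1r2 and Osm climb with the marker sum across all groups, from DPI library 2 at 1072 CPM to DPI library 4 at 5979 CPM, whereas the 3 vehicle libraries of Il1rn (122 to 154 CPM) stay above the others at like marker sums.

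The number of members that differed between DPI and vehicle depended on DPI library 4. Without it, 1 member was higher and 4 were lower at the study's threshold, where 1.78% of all genes were higher and 2.32% lower in that fit. Il1b was then lower with DPI by a log2 fold change of -1.46 (edgeR unadjusted p = 0.0216), Il1r2 by -2.38 (unadjusted p = 0.0345) and Il1rap by -1.33 (unadjusted p = 0.0363), besides Il1rn at -1.83, each with an adjusted p of 0.88 in edgeR. The higher member was Il1a, from which nothing is read.

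**Figure D4:**
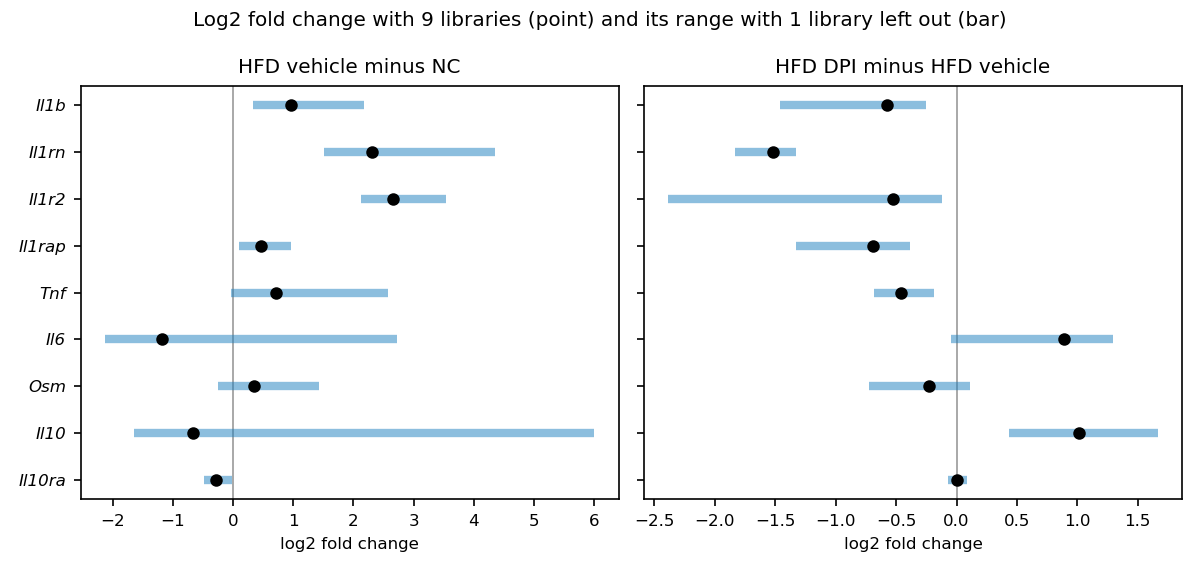
Log2 fold change with all 9 libraries (point) and its lowest to highest value with 1 library left out (bar, horizontal axis), for 9 of the 10 genes. For DPI against vehicle Il1rn stays between -1.83 and -1.33 and Il1r2 runs from -2.38 to -0.12, and for HFD vehicle against NC the bars of Tnf, Il6, Osm and Il10 cross 0.

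Tnf, the gene of tumour necrosis factor (chromosome 17 from 35199381 to 35202007), had 46.4 and 7.47 CPM in NC, 37.7, 35.0 and 60.2 CPM in HFD vehicle, and 34.8, 12.2, 35.1 and 45.7 CPM in HFD DPI. Apart from NC library 2 and DPI library 2, the libraries lay close together, and the groups overlapped. The log2 fold change was 0.72 (SE 0.67, edgeR unadjusted p = 0.308) for HFD vehicle against NC, -0.46 (SE 0.55, unadjusted p = 0.414) for DPI against vehicle and 0.25 (SE 0.63, unadjusted p = 0.696) for DPI against NC. The first depended on the NC library kept, since it was 2.57 without NC library 1 (edgeR unadjusted p = 0.00345, adjusted p = 0.16, with the spread of the single NC library taken from the other groups) and -0.042 without NC library 2. DPI against NC likewise gave 2.11 (edgeR unadjusted p = 0.00952) and -0.50. Across the 9 libraries r of Tnf was 0.21 with Il1b, 0.45 with Il1r2 and 0.13 with Osm, as a description.

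Il6, the gene of interleukin-6 (chromosome 5 from 30013114 to 30019981), was measured on 3 to 89 counts per library. It had 0.546 and 16.1 CPM in NC, 3.55, 3.63 and 3.72 CPM in HFD vehicle, and 0.368, 3.06, 16.5 and 7.14 CPM in HFD DPI. The vehicle libraries were nearly equal, and both other groups reached below and above them. Without NC library 2 the log2 fold change of HFD vehicle against NC was 2.72 in place of -1.19 (SE 1.31, edgeR unadjusted p = 0.381). Without DPI library 3 that of DPI against vehicle was -0.046 in place of 0.89 (SE 1.14, edgeR unadjusted p = 0.448), so both signs turned.

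Il10, the gene of the anti-inflammatory interleukin-10 (chromosome 1 from 131019845 to 131024974), was near the limit of detection. It had 0 and 20 counts in NC, 0, 11 and 6 counts in HFD vehicle, and 40, 0, 18 and 35 counts in HFD DPI, and 1 library of each group was at 0. The highest level was 3.74 CPM, in NC library 2. DPI against vehicle gave a log2 fold change of 1.01 (SE 1.67, edgeR unadjusted p = 0.554), which was 0.43 without vehicle library 1 and 1.66 without vehicle library 2. HFD vehicle against NC gave -0.67 (SE 1.94, edgeR unadjusted p = 0.735), which was -1.65 without NC library 1 and 6.01 without NC library 2.

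Il10ra, which codes for the ligand-binding chain of the IL-10 receptor (chromosome 9 from 45253837 to 45269149), was the steadiest of the 10, with 86.0 to 146 CPM. The NC libraries had 146 and 104.8 CPM, the vehicle libraries 99.0, 104.3 and 104 CPM, and the DPI libraries 86.0, 106, 101 and 119 CPM. The vehicle libraries were just below both NC libraries, with a log2 fold change of -0.29 (95% interval -0.93 to 0.35, edgeR unadjusted p = 0.342), which was -0.02 without NC library 1. DPI against vehicle gave 0.01 (95% interval -0.53 to 0.55, edgeR unadjusted p = 0.978).

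Counted over all members, the libraries of HFD vehicle and NC did not overlap for Il1rn and Il1r2, which were higher, and for Il1a and Il10ra, which were lower. Of all genes tested, 15% were higher and 12.5% lower without overlap, beside 2 of 10 members in each direction, of which Il1a is again not read against the share. Between DPI and vehicle, 0 members were higher and 1 (Il1rn) was lower without overlap, against 3.38% and 2.48% of all genes. Between DPI and NC 0 members were separated in either direction, against 11.7% higher and 8.5% lower of all genes.

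Ratios within a library do not depend on the scaling between libraries. The Il1rn count was 3.28% and 6.60% of the Il1b count with NC, 21.5%, 9.69% and 18.1% with HFD vehicle, and 14.6%, 20.9%, 8.25% and 5.24% with HFD DPI. The antagonist was thus scarcer against its agonist in both NC libraries than in any vehicle library, with a difference in the log2 ratio of 1.73 (exact two-sided permutation test p = 0.1, the smallest possible, adjusted p = 0.45 over 9 ratio tests). DPI against vehicle gave -0.54 (exact permutation p = 0.371, adjusted p = 0.557) with overlapping libraries.

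The log2 ratio of the decoy Il1r2 to the accessory chain Il1rap was 1.16 and 1.72 in NC, 3.18, 4.80 and 3.36 in HFD vehicle, and -0.22, 0.10, 3.62 and 4.53 in HFD DPI. All vehicle libraries exceeded both NC libraries, by 2.34 on average (exact permutation p = 0.1, the smallest possible, adjusted p = 0.45), and 2 DPI libraries lay below NC and 2 within the vehicle range, giving -1.77 against vehicle (exact permutation p = 0.343, adjusted p = 0.557). The ratio of Il10 to Tnf rested on libraries without Il10 counts and differed by -0.91 between HFD vehicle and NC (exact permutation p = 1) and by 1.65 between DPI and vehicle (exact permutation p = 0.286, adjusted p = 0.557).

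**Figure D5:**
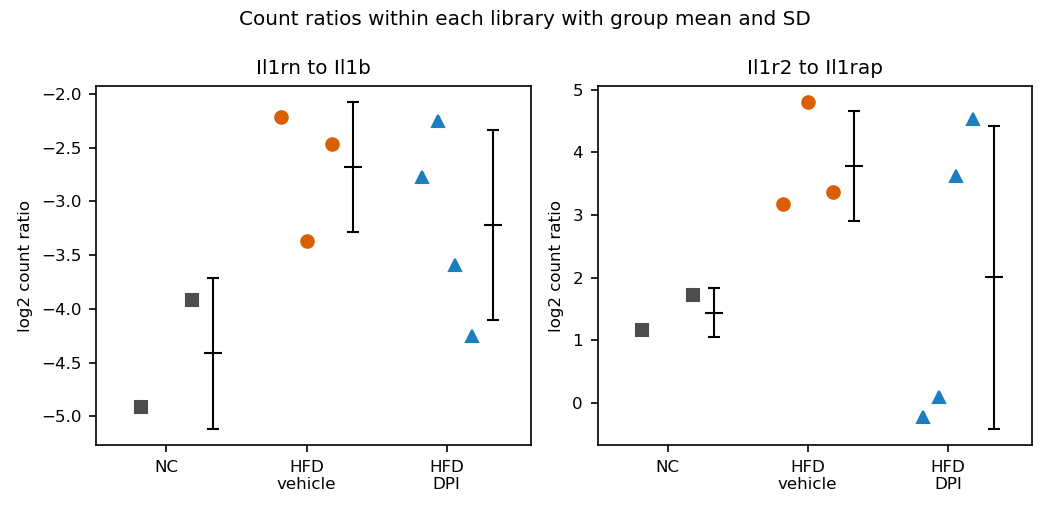
Log2 ratio of the Il1rn to the Il1b count and of the Il1r2 to the Il1rap count (vertical axes) in each library, with the group mean and SD. Both NC libraries lie below the 3 vehicle libraries in both ratios, and the DPI libraries spread from -4.25 to -2.26 for Il1rn to Il1b and from -0.22 to 4.53 for Il1r2 to Il1rap.

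Other genes of these pathways were taken from 6 lists, of which 55 genes were tested. At the study's threshold 6 were higher and 1 lower in HFD vehicle than in NC (12.7% of the 55). With DPI 0 were higher and 1 lower than with vehicle (1.82%), and 4 higher and 1 lower than in NC (9.09%). Of all genes tested, 7.03% were higher and 4.63% lower, 1.5% and 1.34%, and 6.24% and 3.05%, in the same order of comparisons. Sigirr, Il27 and Lif among the 6, and Sigirr and Il12a among the 4, were too low in NC to pass the filter on low counts except through HFD libraries in which they were high, so they had to differ and nothing is read from their calls. Without them 3 higher genes were left in HFD vehicle and 2 with DPI against NC. EdgeR called 0 of the 55 after adjustment in each comparison. At an unadjusted p under 0.05 there were 8, 4 and 8, with the calls of these 4 genes included, where 13%, 4.13% and 10.7% of all genes were. Among the 6 tested of 8 partner receptors, 1 was lower in HFD vehicle than in NC and 0 passed in the other comparisons. This was Lifr, a receptor chain used by leukaemia inhibitory factor and oncostatin M, with 87.6 ± 11.6 CPM in NC and 42.9 ± 21.1 CPM in HFD vehicle (log2 fold change -1.03, SE 0.42, edgeR unadjusted p = 0.0291). Il10rb, the second chain of the IL-10 receptor, had a log2 fold change of 0.90 in the same comparison and Tnfrsf1b, a TNF receptor, of -0.82 with DPI against vehicle (edgeR unadjusted p = 0.0332 and 0.00751), both under the 2-fold limit.

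In the rest of the IL-1 family, 7 of 13 genes were tested, and 1 was higher and 0 lower in HFD vehicle than in NC, leaving out Sigirr. Il18rap, the accessory chain of the IL-18 receptor, had 10 and 15 counts in NC and 60, 119 and 176 in HFD vehicle (log2 fold change 3.49, SE 1.30, edgeR unadjusted p = 0.018), and Sigirr, an inhibitory member of the receptor family, had 0 and 5 counts in NC and 19, 12 and 41 in HFD vehicle. With DPI, Il18rap had 10, 15, 108 and 402 counts, or 0.612, 5.09, 20.0 and 41.0 CPM, so that DPI library 1 lay below both NC libraries (1.82 and 2.80 CPM), and without DPI library 4 the DPI mean fell from 16.7 to 8.57 CPM. With DPI 0 of 7 genes passed against vehicle, and against NC 1 was higher, leaving out Sigirr (Il18rap, log2 fold change 2.85, SE 1.23, edgeR unadjusted p = 0.037, with these libraries overlapping), and 1 was lower. The latter, Il1f9, which codes for IL-36γ, differed by a log2 fold change of -2.21 (SE 0.66, edgeR unadjusted p = 0.00492), with 28.4 ± 1.29 CPM in NC, 11.4 ± 6.36 CPM in HFD vehicle and 6.02 ± 4.60 CPM in HFD DPI. All 12 genes of IL-1 signalling below the receptor were tested and 0 reached an unadjusted p of 0.05 in edgeR in any comparison. Their median log2 fold change was 0.28 for HFD vehicle against NC (all genes 0.03) and -0.13 for DPI against vehicle (all genes 0.04).

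Of the 9 tested genes of cytokine processing and release, 1 was higher in HFD vehicle than in NC, namely Adam17, the sheddase that frees TNF (log2 fold change 1.15, SE 0.41, edgeR unadjusted p = 0.0144), with 24.3 ± 10.7 CPM in NC, 54.0 ± 6.74 CPM in HFD vehicle and 32.7 ± 5.23 CPM in HFD DPI. Nlrp3, the inflammasome sensor upstream of IL-1β cleavage, was lower with DPI than with vehicle by a log2 fold change of -1.33 (SE 0.56, edgeR unadjusted p = 0.0326, adjusted p = 0.999). Its level went from 56.2 ± 22.3 to 22.1 ± 13.7 CPM, with overlapping libraries. Of the 8 JAK-STAT genes, Socs1, a feedback inhibitor of cytokine receptors, had 7.28 CPM in both NC libraries, 30.1 ± 9.14 CPM in HFD vehicle and 16.4 ± 3.67 CPM in HFD DPI, and it was higher in HFD vehicle than in NC by 2.04 (SE 0.53, edgeR unadjusted p = 0.00201, adjusted p = 0.166). Socs1 was also higher with DPI than in NC, by 1.16 (edgeR unadjusted p = 0.0355). Tyk2, a kinase of these receptors, had a log2 fold change of -0.93 with DPI against NC (edgeR unadjusted p = 0.0472), under the 2-fold limit.

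Among the 13 tested of 19 other macrophage cytokines, 0 passed with DPI against vehicle, and 0 passed in the comparisons with NC besides Il27, Lif and Il12a, from whose calls nothing is read. Il27, a subunit of interleukin-27, had 0 counts in both NC libraries, 19, 9 and 20 counts in HFD vehicle and 1, 1, 0 and 21 counts in HFD DPI. Lif, the gene of leukaemia inhibitory factor, had 0 and 1 counts in NC, 33, 1 and 20 counts in HFD vehicle and 69, 1, 2 and 1 counts in HFD DPI. Il12a, a subunit of interleukin-12, had 0 counts in NC, 0, 5 and 0 in HFD vehicle and 11, 1, 23 and 30 counts in HFD DPI.

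For likeness, the genes whose log2 CPM followed each member most closely over the 9 libraries were listed as a description. Without the 2 libraries farthest from a member's median, the lowest r among the genes named for members other than Tnf and Il10ra was 0.85 (Emd). For Il1r2 they were Cxcl2, a neutrophil-attracting chemokine (r = 0.99), the transcription factor gene Ets2 (r = 0.99) and Irg1, which makes itaconate (r = 0.98). For Il1b they were Spib and Cd79a, both known from B cells, and the complement receptor gene C5ar1, each at r = 0.98. For Il1rn they were Fbxw11 (r = 0.96), Emd, which codes for the nuclear envelope protein emerin (r = 0.95), and AA467197 (r = 0.95). For Osm Ppm1k (r = 0.97) and Kri1 (r = 0.96) were among them, and for Tnf they were Wdfy4, Pan2 and Zswim7 (r = 0.98, 0.94 and 0.94, or 0.89, 0.76 and 0.58 without those 2 libraries). For Il1rap Dennd3, Midn and Ubxn7 came first (r = 0.95, 0.94 and 0.93). Il10ra was nearest to Oxr1, Rock1 and Ube2r2 (r = 0.94, 0.93 and 0.92, or 0.60, 0.77 and 0.41 without those 2), Il1a to Csda, Ifitm6 and Psen2 (r = 0.95, 0.93 and 0.91), Il6 to Carhsp1, Ly75 and Cnnm2 (r = 0.96, 0.95 and 0.94), and Il10 to Sco1, Map2k3 and Inpp5a (r = 0.96, 0.95 and 0.94).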

How the data were processed

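RNA from F4/80+CD11b+Gr1low liver macrophages was sequenced in 9 mouse libraries. The authors aligned reads to mm10 and, per the study's methods, obtained raw counts per gene with bowtie2 and RSEM; the submitters' processing notes name TopHat2 and edgeR. The deposited table holds whole-number counts, not normalized, with all 9 columns mapped to labelled samples and 0 columns of no sample.

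Counts were tested with edgeR 4.0.16 (R 4.3.3, limma 3.58.1) after filterByExpr and TMM scaling, by glmQLFit and glmQLFTest in a single fit of 3 groups, with Benjamini-Hochberg adjustment over 11393 genes. CPM used TMM-scaled totals, and log2 CPM a prior count of 2. Count ratios used a pseudocount of 0.5 and two-sided exact permutation tests. Totals and floors are given with the results, and limits of 3 counts cover counting error only. Gene positions and exon lengths came from GENCODE M21 and promoter windows from RefSeq. Figures were drawn with matplotlib 3.10.9 and tables handled with pandas 2.3.3 and numpy 2.4.6 in Python 3.11.15. DESeq2 1.42.0 served as the other count test. The edgeR fit was tested on simulated data.

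Members, lists and markers were chosen with earlier results of these data known. All members are named; from each pathway list, at most 3 genes with an unadjusted p under 0.05 in any comparison, smallest p first; and for each member the 3 genes of highest Pearson correlation, of which 1 is not reported here. Genes outside these rules (Il1r1 and single cell markers) were chosen after their values were seen. The settings varied were the scaling (RLE, or library size only), the filter (none, or at least 10 counts on average), DESeq2, fits of 2 groups, no Rn45s, the replicate number as a block, a pseudocount of 1, and each library left out. The permutation test of single members was added after seeing the data.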

Additional observations from a re-analysis of the deposited data

Results flagged for a closer look

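The log2 ratio of the Il10 to the Tnf count was -6.19 in DPI library 2, away from the other 3 DPI libraries, which had -3.81, -3.36 and -3.66. The gap was above Dixon's 95% limit for a group of 4. That library had 0 Il10 counts and 36 Tnf counts at the smallest depth of all, 3534325 counts, so its ratio is set by the pseudocount. The check was made on 13 groups of values, and chance alone marks about 1 in 20.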

How the results depend on the processing

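Depth limits Il1a, Il6 and Il10, and comparisons with NC rest on 2 libraries, 1.39-fold (Il10ra) to 29.4-fold (Il6) apart among members detected in both. With scaling by library size the median over all genes for HFD vehicle against NC went from 0.03 to -0.26 (log2), and Osm with DPI against NC turned to -0.026. At the study's threshold 539 genes were then higher and 933 lower for HFD vehicle against NC, in place of 801 and 528. For DPI against NC there were 546 and 624, in place of 711 and 347. DESeq2 raised the adjusted calls for HFD vehicle against NC from 0 to 2 (Il1rn and Il1a, the latter not read), and a fit of vehicle and DPI alone left 1 member at the study's threshold, since Il1a no longer passed the filter on low counts there (Il10ra -0.022). Without Rn45s Il10ra with DPI against vehicle was -0.0087. The cause of the other changes was not tested. The added permutation test on mean log2 CPM reversed Il6 (0.077 for HFD vehicle against NC, 0.14 for DPI against NC) and Il10ra (-0.00162 for DPI against vehicle).

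With 1 library left out, members at the study's threshold numbered 1 to 5 for DPI against vehicle and 0 to 1 for DPI against NC (1 each without NC library 1, NC library 2 or DPI library 2, where 7.13%, 14.7% and 5.74% of all genes were higher and 2.48%, 6.60% and 2.43% lower), and adjusted calls 0 to 1 in both comparisons with NC (1 each without NC library 2, where 4.61% and 4.64% of all genes were called). The counts for DPI against vehicle include Il1a where it passed, from which nothing is read. An NC arm of 1 library is assumed to vary like the other groups. The ratio of Il1r2 to Il1rap for DPI against NC ran from -0.27 to 1.31, and that of Il10 to Tnf from -4.92 to 3.09 for HFD vehicle against NC (0.34 without vehicle library 1) and from -3.27 to 4.74 for DPI against NC. Log2 fold changes that changed sign ran, for HFD vehicle against NC, from -0.042 to 2.57 (Tnf), -2.13 to 2.72 (Il6), -1.65 to 6.01 (Il10) and -0.25 to 1.43 (Osm). For DPI against vehicle they ran from -0.046 to 1.30 (Il6), -0.071 to 0.085 (Il10ra; -0.024 without vehicle library 1, -0.012 without DPI library 2) and -0.73 to 0.11 (Osm; 0.06 without DPI library 2). For DPI against NC they ran from -0.50 to 2.11 (Tnf), -1.24 to 3.61 (Il6; 0.11 without DPI library 1), -0.50 to 1.58 (Il1b; -0.26 without NC library 1), -0.0054 to 2.84 (Il1rn), -0.87 to 0.28 (Il1rap; 0.07 without DPI library 2), -0.64 to 7.01 (Il10) and -0.48 to 1.198 (Osm; -0.39 without DPI library 4).

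Same-numbered libraries share only a number (correlations of their deviations from -0.02 to 0.08). With it as a replicate block, Il1r2 also passed for HFD vehicle against NC (edgeR unadjusted p = 0.0236), and 4 members were lower at the study's threshold for DPI against vehicle, where 1.32% of all genes were higher and 2.2% lower (Il1b -1.63, Il1r2 -3.97, Il1rap -1.35, Il1rn -1.92), Il6 was at -0.69 and Il10ra at -0.070. For DPI against NC the block gave -0.69 (Il1b), -1.77 (Il1r2), -0.45 (Osm), -1.50 (ratio of Il1r2 to Il1rap) and -0.0095 (ratio of Il10 to Tnf).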
